A study of Mus musculus with 9 samples.

Results

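The 10 genes described here encode MHC class II molecules and the proteins that load them with peptide, in mouse bone marrow-derived macrophages. They were chosen by name, and all 10 were found among the 24607 genes of the deposited table. H2-Aa, H2-Ab1 and H2-Eb1 are surface chains, H2-DMa, H2-DMb1 and H2-DMb2 make the loader H2-DM, and H2-Oa is a chain of its inhibitor H2-O. Cd74 is the invariant chain, Ctss is cathepsin S, and Ciita is the transactivator of the class II genes. Every group had the genotype CX3CR1-gfp/+, a fluorescent reporter inserted in the fractalkine receptor gene, and was differentiated from bone marrow with 50 ng/ml M-CSF. The groups were macrophages co-cultured with dorsal root ganglion (DRG) neurons, macrophages given 0.02 ng/ml TGF-β, and macrophages kept in monoculture. Each group had 3 libraries with a time label of 5 d, and cells were sorted on CD11b and CD64 before RNA was taken. The submitters name 3 mice as the source, without saying whether libraries of the same number share a mouse, so the p-values below measure the spread between these libraries. The labels do not say whether macrophages of the ganglia themselves were kept out of the sort, or what other ganglion cells the co-culture held.

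MHC class II molecules are pairs of an α and a β chain that present peptides to CD4+ T cells. H2-Aa and H2-Ab1 form I-A, and H2-Eb1 is the β chain of I-E. Newly made chains bind the invariant chain Cd74, which fills the peptide groove until cathepsin S and other endosomal proteases trim it to a fragment called CLIP. H2-DM then exchanges CLIP for peptide, and H2-O, made of H2-Oa and H2-Ob, holds H2-DM back. CIITA binds no DNA by itself and acts through the RFX, NF-Y and CREB factors, which sit on the X and Y boxes of class II promoters. Interferon-γ is the best known inducer of Ciita in macrophages.

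RefSeq promoter windows of 300 bases (250 before to 50 after a start site, GRCm38.p6) were at hand for 7 of the 10 genes. Both strands were searched for a strict X box consensus, which 0.968% of all 32851 windows held, and for the Y box ATTGG, which 37.4% held. The stretches below run from 150 to 21 bases before the start site. They show where exact matches lie in genes that are usually described as a CIITA-controlled set. A stretch without a match can still hold a variant X box that the consensus misses. Capitals mark matches to these motifs (CCAAT is a Y box on the other strand), and in H2-Ob they mark a match to a looser X box with more free positions, held by 14.8% of windows.
H2-Aa: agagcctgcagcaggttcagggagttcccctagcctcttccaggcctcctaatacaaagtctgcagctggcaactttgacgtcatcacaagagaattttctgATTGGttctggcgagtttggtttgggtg
H2-Eb1: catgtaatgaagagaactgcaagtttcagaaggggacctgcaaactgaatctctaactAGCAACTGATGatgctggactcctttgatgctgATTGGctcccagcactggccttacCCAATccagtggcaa
H2-DMb1: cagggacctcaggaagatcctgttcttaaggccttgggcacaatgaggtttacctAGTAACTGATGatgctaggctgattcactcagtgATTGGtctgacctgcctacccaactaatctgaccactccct
H2-DMb2: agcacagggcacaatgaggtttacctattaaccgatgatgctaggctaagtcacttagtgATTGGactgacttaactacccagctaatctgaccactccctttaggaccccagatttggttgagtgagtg
H2-Oa: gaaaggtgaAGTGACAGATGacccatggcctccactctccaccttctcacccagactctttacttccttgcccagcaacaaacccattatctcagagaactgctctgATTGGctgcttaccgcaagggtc
H2-Ob: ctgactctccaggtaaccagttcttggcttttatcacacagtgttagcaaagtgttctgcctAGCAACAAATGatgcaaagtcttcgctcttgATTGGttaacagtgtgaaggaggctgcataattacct

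The stretches lie at chr17:34287844-34287973 for H2-Aa on the minus strand and, on the plus strand, at chr17:34305717-34305846 for H2-Eb1, chr17:34153041-34153170 for H2-DMb1, chr17:34145099-34145228 for H2-DMb2, chr17:34092229-34092358 for H2-Oa and chr17:34238755-34238884 for H2-Ob. An X box followed by a Y box 5 to 40 bases further 3′ occurred in 12 of the 32851 windows (0.0365%), among them those of H2-Eb1 and H2-DMb1. The X box of H2-Eb1 began 92 bases and its Y box 59 bases before the start, and those of H2-DMb1 began 95 and 61 bases before it. H2-DMb2, the close copy of H2-DMb1, held the Y box 90 bases before the start and an X box with 1 mismatch 124 bases before it. Allowing 1 mismatch, 214 windows (0.651%) held such a pair; this wider search was made after the exact matches were seen. H2-Ob held the looser X box 88 bases and a Y box 57 bases before the start, a pair found in 0.423% of windows. In H2-Oa the X box, 141 bases before the start, and the Y box, 43 bases before it, were further apart than the set spacing. The H2-Aa window held a Y box 48 bases before the start and no exact match to either X box form searched. H2-DMa has windows at 2 start sites, of which the upstream one held neither motif and the downstream one a Y box alone, and the Ctss window held neither. These are matches of letters, not measured binding.

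Depth ranged from 46.8 to 308.8 M reads per library. The values are read counts divided by a size factor per library (normalized counts), and 1 read was worth 0.346 to 2.27 of them. The sort antigens Itgam (CD11b) and Fcgr1 (CD64) were not called different in any comparison, and Csf1r, the M-CSF receptor, was not either. The summed levels of 6 macrophage markers were 328907 to 369526 in co-culture, 336070 to 341872 in the TGF-β libraries and 343349 to 417566 in monoculture. Among them Mertk rose and Emr1, a macrophage surface receptor, fell in co-culture against monoculture, and Cd68 was not called. Mertk also rose with TGF-β, at 4235 to 5168 against 3002 to 3055 in monoculture. Fibroblast markers summed to 5675 to 8156 in co-culture, whereas the TGF-β libraries held 19.5 to 91.8 and those of monoculture 25.6 to 97.4. All 5 tested rose in co-culture against both, where 15.9% of all genes tested rose against monoculture and 13.4% against TGF-β. Among them Dcn, at 33.3 to 118.3 in co-culture and at most 4.87 elsewhere, reached the level needed for testing (10 in 3 libraries) through co-culture alone. Glial markers gave 1244 to 1439 in co-culture, 839 to 902 in the TGF-β libraries and 763 to 1029 in those of monoculture, and Ngfr, at 209 to 261 in co-culture, was at 0 in all others. Of the 6 glial markers, 4 rose and 1 fell in co-culture against monoculture, and 3 rose and 1 fell against TGF-β. The one that fell was Fabp7, at 74.2 to 89.7 in co-culture, 129.5 to 233.8 in the TGF-β libraries and 131.2 to 225.7 in monoculture. Over all genes tested, 15.9% rose and 15.0% fell against monoculture, and 13.4% rose and 11.9% fell against TGF-β. Sox10 and Ngfr also reached the level for testing through co-culture alone. Like Dcn, they had to come out higher there if called. Neuron markers gave 106 to 187 in co-culture, 27.8 to 43.2 in the TGF-β libraries and 35.6 to 76.3 in those of monoculture. These sums move with the co-culture results below, and their part in them was not tested.

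Dendritic cells and B cells, the other classical carriers of class II, were also checked. The 7 dendritic cell markers analysed summed to 172 to 221 in co-culture, 189 to 270 in the TGF-β libraries and 136 to 224 in monoculture. Most of this was Batf3, at 114.1 to 146.8 in co-culture, 142.0 to 205.9 in the TGF-β libraries and 85.2 to 193.2 in monoculture. None of the 3 tested was called in any comparison. Of all genes tested, 30.8% were called for co-culture against monoculture, 2.52% for TGF-β against monoculture and 25.3% for co-culture against TGF-β. Of the defining genes, Zbtb46 was read in all 9 libraries, at 19.3 to 42.2 in co-culture, 11.4 to 28.6 in the TGF-β libraries and 21.1 to 34.5 in monoculture. Clec9a reached 9.01 in co-culture, 13.6 in the TGF-β libraries and 20.1 in monoculture, whereas Ccr7 was at 0 in 8 libraries and Xcr1 did not pass 6.56 in any. The 5 B cell markers analysed summed to 361 to 492 in co-culture, 1036 to 1518 in the TGF-β libraries and 830 to 1004 in monoculture. Most of that sum was Ighm, the μ heavy chain, at 280.4 to 410.2 in co-culture, 939.6 to 1438 in the TGF-β libraries and 773.5 to 952.3 in monoculture. Ighm was called lower in co-culture against both other groups. Cd79b, a chain of the B cell receptor complex, was not called, at 61.0 to 76.4 in co-culture, 40.6 to 87.4 in the TGF-β libraries and 17.9 to 51.8 in monoculture. Ms4a1 (CD20) stayed between 0 and 8.66 in all 9 libraries. The 2 T cell markers analysed, Cd3d and Lck, summed to at most 16.2 in any library. Ighm was lowest in co-culture, as were Cd74 and Ciita, and highest in a TGF-β library, as were H2-Aa and H2-Ab1, and its part in those results was not tested.

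**Figure D1:**
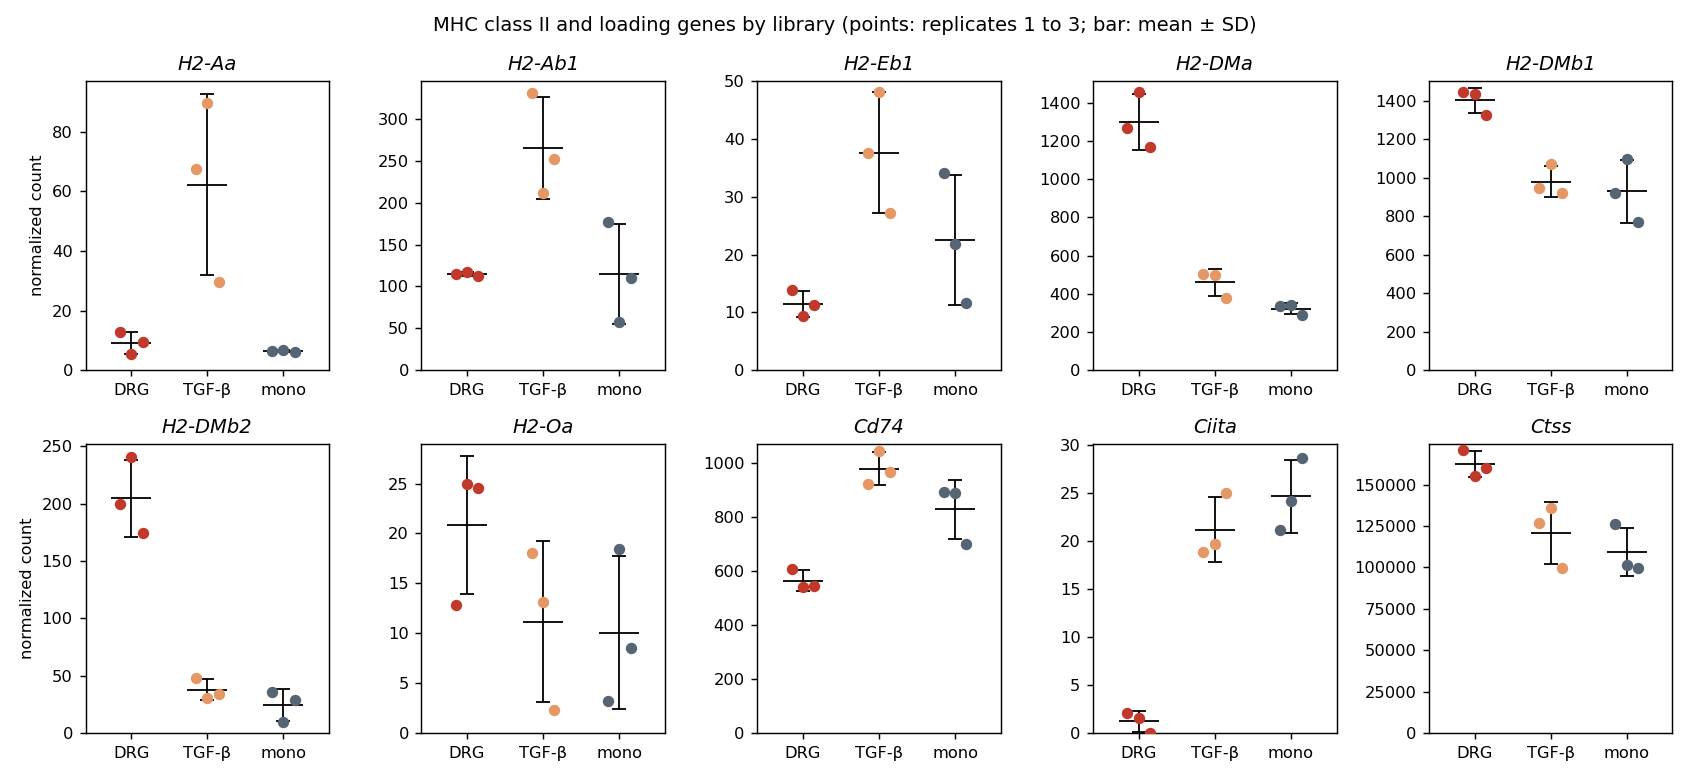
Normalized counts of the 10 genes by library on linear axes from 0, in DRG co-culture, TGF-β and monoculture, with 1 point per library and bars for the mean ± SD. The H2-DM chains are highest in the 3 co-culture libraries, where Ciita and Cd74 are lowest, and H2-Aa and H2-Ab1 are highest with TGF-β.

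Calls for co-culture against monoculture differed between the roles of the genes. All 3 loader chains and Ctss were higher in co-culture, Cd74 and Ciita were lower, and none of the 3 surface chains was called. The absence of a call does not show that a surface chain was unchanged. A gene was called at a Benjamini-Hochberg adjusted p under 0.05 in a limma fit across all 16328 genes tested. By this rule 4 of the 10 genes rose and 2 fell, against 15.9% and 15.0% of all genes tested (30.8% in either direction). For 6 of the 10 the co-culture and monoculture libraries did not overlap, against 45.0% of all genes tested. The median log2 fold change of the 10 was 0.39, against 0.03 over all genes tested. Fold changes are on the log2(normalized count + 10) scale, which understates those of low genes. In sorted bulk RNA, fewer cells carrying a transcript and less of it per cell cannot be told apart.

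TGF-β against monoculture gave 1 called gene among the 10, the I-A α chain H2-Aa, which rose. Of all genes tested, 2.52% were called, 1.13% higher and 1.39% lower with TGF-β. TGF-β and monoculture libraries did not overlap for 4 of the 10 genes, H2-Aa, H2-Ab1, H2-DMa and Cd74, all higher with TGF-β, against 16.9% of all genes tested. The median log2 fold change was 0.37, against -0.01 over all. Co-culture set directly against TGF-β gave 9 called genes, 4 higher and 5 lower in co-culture, against 25.3% of all genes tested (13.4% higher and 11.9% lower). The same 9 did not overlap between the groups, against 41.0% of all. The 3 comparisons share libraries, so their values are given side by side and are not independent. H2-Aa reached the minimum level for testing (10 in 3 libraries) through all 3 TGF-β libraries and 1 of co-culture, and Ciita through the TGF-β and monoculture libraries alone. Each of them therefore had to differ where it was called, and the counts above include them.

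**Figure D2:**
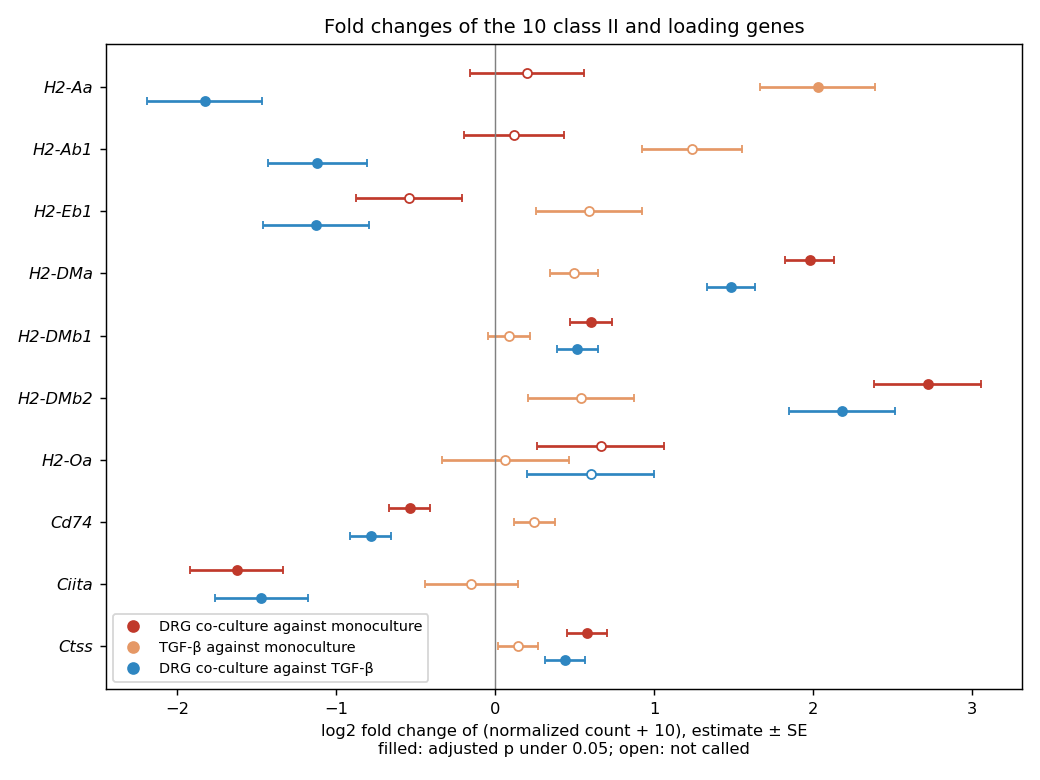
Log2 fold changes of the 10 genes (estimate ± SE from the fit, 3 libraries per group) for the 3 comparisons, with filled points for adjusted p under 0.05. Co-culture against monoculture separates the H2-DM chains, at 0.60 to 2.72, from Ciita at -1.63.

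The surface chains had their highest means with TGF-β, although H2-Aa alone was called against monoculture, and each was lower in co-culture than with TGF-β. H2-Ab1 (ENSMUSG00000073421, chr17:34257689-34269419), the I-A β chain, had 114.3, 117.2 and 112.3 normalized counts in co-culture, 331, 212 and 252 with TGF-β, and 177, 57.6 and 110.0 in monoculture. The co-culture libraries lay inside the range of monoculture, and every TGF-β library lay above both groups. Co-culture against monoculture gave a log2 fold change of 0.12 ± 0.31 (SE, adjusted p = 0.821). TGF-β against monoculture gave 1.24 ± 0.31, which was not called (adjusted p = 0.0558). It was called without monoculture replicate 1, at 1.59 (adjusted p = 0.0162), and by DESeq2 (adjusted p = 0.00851). H2-Ab1 was lower in co-culture than with TGF-β, by a log2 difference of -1.12 ± 0.31 (adjusted p = 0.0168). Without TGF-β replicate 1 this was -0.95 (adjusted p = 0.0855).

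H2-Aa (ENSMUSG00000036594, chr17:34282744-34287823), the α chain that pairs with it, had 12.8, 5.47 and 9.30 normalized counts in co-culture, 67.6, 89.6 and 29.5 with TGF-β, and 6.49, 6.91 and 6.20 in monoculture. These rest on 58, 144 and 18 reads summed over each group's libraries, so outside TGF-β the gene was close to the depth limit. The TGF-β libraries stood apart from all others. H2-Aa rose with TGF-β by 2.03 ± 0.36 (adjusted p = 0.00777), and the ratio of means was 9.53. Without TGF-β replicate 1 it was 1.92 (adjusted p = 0.0556). In co-culture it was lower than with TGF-β, at -1.83 ± 0.36 (adjusted p = 0.00171), and against monoculture it was at 0.20 ± 0.36 (adjusted p = 0.730).

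H2-Eb1 (ENSMUSG00000060586, chr17:34305867-34316674), the I-E β chain, had 13.9, 9.38 and 11.3 normalized counts in co-culture, 37.6, 48.1 and 27.3 with TGF-β, and 34.1, 21.9 and 11.6 in monoculture. TGF-β and monoculture overlapped, with 0.59 ± 0.33 (adjusted p = 0.449), and co-culture and monoculture overlapped too, with -0.54 ± 0.33 (adjusted p = 0.252). Co-culture lay wholly below TGF-β, at -1.13 ± 0.33 (adjusted p = 0.0227). The call was lost when any library of the 2 groups was left out, except TGF-β replicate 3. Adjusted p was 0.0501, 0.0846 and 0.0554 without co-culture replicates 1, 2 and 3, and 0.0629 and 0.0882 without TGF-β replicates 1 and 2. Another I-E β gene of the region, H2-Eb2, and the I-E α genes were not analysed here.

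The loader genes, by contrast, had their highest levels in co-culture. H2-DMa (ENSMUSG00000037649, chr17:34119541-34139101), the α chain of H2-DM, had 1269, 1455 and 1168 normalized counts in co-culture, 501, 500.4 and 377 with TGF-β, and 334, 342 and 289 in monoculture. No groups overlapped, and all co-culture libraries lay far above the rest. It rose in co-culture by 1.98 ± 0.15 against monoculture (adjusted p = 2.00e-07, ratio of means 4.03) and by 1.48 ± 0.15 against TGF-β (adjusted p = 5.71e-06). TGF-β against monoculture gave 0.49 ± 0.15, which was not called (adjusted p = 0.115). Without TGF-β replicate 3 it was 0.63 (adjusted p = 0.0266), and DESeq2 called it too (adjusted p = 0.0254). Exons of H2-DMa share 360 bases (10.4%) with Brd2 on the other strand, and use of strand in the counting is not given in the sources used here. Brd2 itself had 22790.4 to 23636 normalized counts in co-culture, 21738 to 25925 in the TGF-β libraries and 25406 to 25655 in monoculture.

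H2-DMb1 (ENSMUSG00000079547, chr17:34153072-34160230) and H2-DMb2 (ENSMUSG00000037548, chr17:34143307-34151555) are neighbouring copies of the β chain. H2-DMb1, the more abundant, had 1446, 1437 and 1330 normalized counts in co-culture, 945, 1073 and 923 with TGF-β, and 921, 1098 and 773 in monoculture. It rose in co-culture by 0.60 ± 0.13 against monoculture (adjusted p = 0.00252) and by 0.52 ± 0.13 against TGF-β (adjusted p = 0.00917). Its TGF-β and monoculture libraries overlapped, with 0.09 ± 0.13 (adjusted p = 0.833).

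H2-DMb2 had 199.9, 240.7 and 174 normalized counts in co-culture, 48.1, 30.6 and 34.1 with TGF-β, and 35.7, 9.21 and 28.7 in monoculture. All co-culture libraries lay far above the rest, and TGF-β and monoculture overlapped. The gene had 1147 reads in co-culture but 93 with TGF-β and 67 in monoculture, where replicate 2 had 8. It rose in co-culture by 2.72 ± 0.33 against monoculture (adjusted p = 2.14e-05, ratio of means 8.35) and by 2.18 ± 0.33 against TGF-β (adjusted p = 2.32e-04). TGF-β against monoculture gave 0.54 ± 0.33 (adjusted p = 0.504). The copies share sequence: 22.7% of the distinct 50-base words of H2-DMb1 transcripts also occur in H2-DMb2 and 21.2% of those of H2-DMb2 occur in H2-DMb1. How the authors' counting treated such reads is not given in the sources used here.

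Of the reads on both H2-DMb genes, H2-DMb2 took 12.1%, 14.3% and 11.6% in co-culture, 4.84%, 2.77% and 3.56% with TGF-β, and 3.74%, 0.832% and 3.58% in monoculture. The lowest co-culture bound of the exact 95% binomial intervals was 10.3%, and the highest bound in the other groups was 6.14%. The groups did not overlap for co-culture against either of the others, and TGF-β and monoculture did. Intervals cover counting error only, since reads without molecular identifiers are not independent molecules. The share is a ratio within each library, so it does not depend on the size factors.

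**Figure D3:**
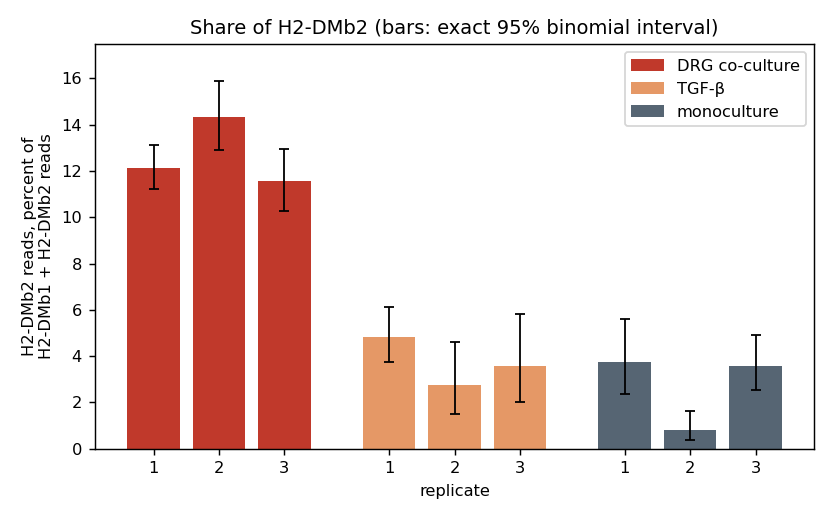
H2-DMb2 reads as a percentage of H2-DMb1 plus H2-DMb2 reads, 1 bar per library with its exact 95% binomial interval, in DRG co-culture, TGF-β and monoculture. The 3 co-culture bars stand at 11.6% to 14.3%, above all others, which end at 4.84%.

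The inhibitor chain H2-Oa (ENSMUSG00000024334, chr17:34092340-34095234) was near the depth limit. It had 12.8, 25.0 and 24.6 normalized counts in co-culture, 18.0, 13.1 and 2.27 with TGF-β, and 3.25, 18.4 and 8.52 in monoculture, and all groups overlapped. No comparison was called, with 0.66 ± 0.40 for co-culture against monoculture (adjusted p = 0.243), 0.06 ± 0.40 for TGF-β against monoculture (adjusted p = 0.970) and 0.60 ± 0.40 for co-culture against TGF-β (adjusted p = 0.313). Its exons share 22.8% of their bases with the antisense gene BC051537, which had at most 3.32 normalized counts in any library.

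H2-Ob, the partner chain of H2-Oa and a gene of the wider pathway list, was called. Per kilobase of exon it had 15.3 ± 3.40 normalized counts in co-culture (SD, n = 3), 8.74 ± 2.66 with TGF-β and 1.67 ± 0.296 in monoculture. H2-Oa had 14.8 ± 4.92, 7.92 ± 5.73 and 7.15 ± 5.47 in the same order. In co-culture and with TGF-β the 2 chains lay within their spread. In monoculture, where H2-Ob and H2-Oa rest on 26 and 29 reads, H2-Ob had the lower mean. H2-Ob had 90.8, 94.5 and 61.1 normalized counts in co-culture, 36.8, 63.4 and 40.9 with TGF-β, and 8.12, 8.06 and 10.8 in monoculture. Both cultures lay above every monoculture library and overlapped each other. In monoculture only replicate 3 reached the minimum level for testing, so the gene passed mainly through the groups where it rose. H2-Ob rose in co-culture by 2.26 ± 0.30 (adjusted p = 3.70e-05) and with TGF-β by 1.56 ± 0.30 (adjusted p = 0.0113), each against monoculture. Without TGF-β replicate 2 the TGF-β value was 1.36 (adjusted p = 0.0558). Co-culture against TGF-β gave 0.70 ± 0.30 (adjusted p = 0.104).

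Cd74 (ENSMUSG00000024610, chr18:60803848-60812652), the invariant chain, had 607, 539 and 544 normalized counts in co-culture, 923, 1045 and 966 with TGF-β, and 893, 889.8 and 700.5 in monoculture. Co-culture lay below every other library. Cd74 fell by 0.54 ± 0.13 on the log2 scale against monoculture (adjusted p = 0.00515) and was lower than with TGF-β by a log2 difference of -0.78 ± 0.13 (adjusted p = 4.09e-04). TGF-β libraries lay above those of monoculture without a call, at 0.24 ± 0.13 (adjusted p = 0.411).

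Ciita (ENSMUSG00000022504, chr16:10480059-10528418), through which most class II transcription runs, had 2.08, 1.56 and 0 normalized counts in co-culture, 18.8, 19.7 and 25.0 with TGF-β, and 21.1, 24.2 and 28.7 in monoculture. These are 6, 2 and 0 reads in the co-culture libraries, although those are among the deepest, and 45 and 71 reads over the TGF-β and monoculture libraries. It fell in co-culture by 1.63 ± 0.29 against monoculture (adjusted p = 6.28e-04), and the difference from TGF-β was -1.47 ± 0.29 (adjusted p = 0.00183). As a rate of reads corrected for size factors it was 18.1 times lower than in monoculture (95% interval 8.72 to 43.6) and 14.3 times lower than with TGF-β (6.68 to 35.2), counting error only. TGF-β and monoculture overlapped, with -0.15 ± 0.29 (adjusted p = 0.878). The library at 0 allows up to 3 reads, or 1.99 normalized counts. Ciita shares 329 exon bases (3.45%) with Dexi on the other strand, which had 336 to 492 normalized counts in co-culture, 486 to 602 in the TGF-β libraries and 603 to 719 in monoculture.

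Ctss (ENSMUSG00000038642, chr3:95526786-95556403), the protease that trims the invariant chain to CLIP, had 170999, 155566 and 160431 normalized counts in co-culture, 126977, 135904 and 99967 with TGF-β, and 126420, 101687 and 99985 in monoculture. Every co-culture library lay above all others. It rose by 0.58 ± 0.13 against monoculture (adjusted p = 0.00261) and by 0.44 ± 0.13 against TGF-β (adjusted p = 0.0197). Against TGF-β it was 0.40 without co-culture replicate 1 (adjusted p = 0.0810) and 0.30 without TGF-β replicate 3 (adjusted p = 0.0613). TGF-β and monoculture overlapped, with 0.14 ± 0.13 (adjusted p = 0.676).

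Set against each other within a library, loaders and surface chains gave 3 separate groups. The mean log2(normalized count + 10) of the 3 H2-DM genes minus that of the 3 surface genes was 4.16, 4.59 and 4.17 in co-culture, 1.5, 1.38 and 1.79 with TGF-β, and 2.25, 2.56 and 2.58 in monoculture. Co-culture was highest and TGF-β lowest, with no overlap. The group means differed by 1.84 for co-culture against monoculture, by -0.91 for TGF-β against monoculture and by 2.75 for co-culture against TGF-β. As the genes were chosen with results known, no test is given for this difference. The 2 sides contributed unequally: the surface mean was 5.07 to 5.35 in co-culture, 6.19 to 6.76 in the TGF-β libraries and 5.05 to 5.68 in monoculture, and the loader mean was 9.37 to 9.66 in co-culture, 7.97 to 8.25 in the TGF-β libraries and 7.61 to 7.94 in monoculture. The group means were 9.52 in co-culture, 8.12 with TGF-β and 7.75 in monoculture for the loaders, and 5.21, 6.57 and 5.28 in the same order for the surface genes. With TGF-β both means were thus above those of monoculture, the surface mean by more than the loader mean. Without H2-DMb2, the loader gene of largest change, the co-culture difference from monoculture was 1.36.

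**Figure D4:**
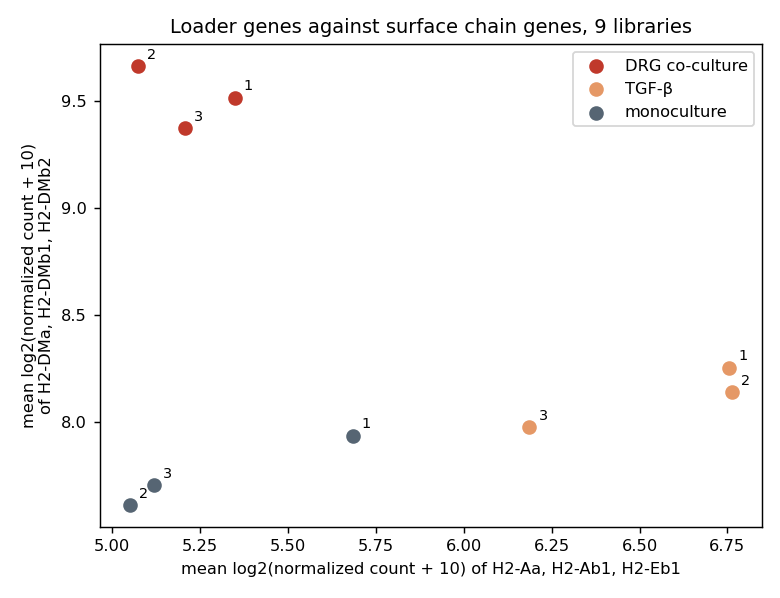
Mean log2(normalized count + 10) of H2-DMa, H2-DMb1 and H2-DMb2 (vertical) against that of H2-Aa, H2-Ab1 and H2-Eb1 (horizontal), 1 point per library. Co-culture libraries lie highest, at 9.37 to 9.66, at surface means like those of monoculture, and TGF-β libraries lie furthest right, at 6.19 to 6.76.

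Levels of different genes can be compared only per length, here as normalized counts per kilobase of exon (GENCODE M21). All annotated exons of a gene were merged for its length. In co-culture Ctss stood at 119538 ± 5810.1 (SD, n = 3), followed by H2-DMb1 at 835 ± 38.5, H2-DMa at 376 ± 42.2 and Cd74 at 336 ± 22.7, of which H2-DMa and Cd74 lay within their spread. H2-DMb2 (117 ± 19.2) and H2-Ab1 (44.6 ± 0.962) came next, then H2-Oa (14.8 ± 4.92), H2-Eb1 (5.92 ± 1.16), H2-Aa (2.42 ± 0.968) and Ciita (0.127 ± 0.114). With TGF-β, Cd74 (582 ± 36.7) equalled H2-DMb1 (583 ± 48.2) and H2-Ab1 (103 ± 23.7) came within the spread of H2-DMa (133 ± 20.7). H2-DMb2 (21.5 ± 5.30), H2-Eb1 (19.4 ± 5.35) and H2-Aa (16.4 ± 8.0) did not differ beyond their spread, and H2-Oa (7.92 ± 5.73) overlapped both H2-Aa and Ciita (2.22 ± 0.352) within its SD. In monoculture, H2-DMb1 (554 ± 97.0) and Cd74 (493 ± 65.7) lay within their spread, above H2-DMa (93.3 ± 8.30), with H2-Ab1 (44.7 ± 23.3) next. H2-DMb2 (14.0 ± 7.86), H2-Eb1 (11.6 ± 5.79) and H2-Oa (7.15 ± 5.47) followed within their spread, H2-DMb2 also touching that of H2-Ab1. Ciita (2.59 ± 0.399) and H2-Aa (1.72 ± 0.0936) had the lowest means, within the spread of H2-Oa. Ctss was 89064 ± 13778 with TGF-β and 80533 ± 10895 in monoculture, far above the other 9 genes.

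On this per-kilobase scale, the summed level of the 3 H2-DM genes divided by that of the 3 surface genes was 24.4, 27.3 and 23.6 in co-culture, 4.42, 6.12 and 5.65 with TGF-β, and 7.54, 21.4 and 11.1 in monoculture. The 3 groups did not overlap, and monoculture replicate 2, the library with the fewest surface counts, was the highest of its group. Cd74 divided by the same surface sum was 6.57, 6.19 and 6.23 in co-culture, 3.31, 4.75 and 4.79 with TGF-β, and 6.03, 14.9 and 8.27 in monoculture. Here co-culture overlapped monoculture, and TGF-β lay below both.

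Among other genes of the pathway, 26 of 29 listed were analysed and all were tested. In co-culture against monoculture 10 rose and 2 fell, against 15.9% and 15.0% of all genes tested, and their median log2 fold change was 0.25, beside 0.03 over all genes tested. With TGF-β against monoculture 2 rose, H2-Ob and March1, and none fell, against 1.13% and 1.39% of all genes tested, with a median of 0.03 beside -0.01. Co-culture against TGF-β gave 8 higher and 2 lower, against 13.4% and 11.9%, with a median of 0.16 beside 0.01. The list, like the 10 genes, was drawn up with earlier results of these data known.

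March1, the ubiquitin ligase that sends class II molecules from the surface to lysosomes, had 9104, 7832 and 7934 normalized counts in co-culture, 3803, 3553 and 3002 with TGF-β, and 2486, 1881 and 1707 in monoculture. The groups did not overlap. It rose in co-culture by 2.04 ± 0.13 against monoculture (adjusted p = 5.76e-08) and by 1.26 ± 0.13 against TGF-β (adjusted p = 9.23e-06), and with TGF-β by 0.78 ± 0.13 against monoculture (adjusted p = 0.00631). Without TGF-β replicate 1 the last was 0.71 (adjusted p = 0.0508). The related ligase March8 was not called, at -0.09 ± 0.09 for co-culture against monoculture (adjusted p = 0.498). Cd83, which opposes March1, was not called either, at 0.38 ± 0.14 (adjusted p = 0.0600).

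Of the 7 endosomal genes, 3 rose and 2 fell in co-culture against monoculture, where 15.9% and 15.0% of all genes tested did. Lgmn, the asparagine endopeptidase that starts invariant chain cleavage in some cells, rose by 1.18 ± 0.09 (adjusted p = 3.06e-07), with 143628 ± 5242 normalized counts in co-culture, 63262 ± 2976 with TGF-β and 63804 ± 6744 in monoculture (SD, n = 3 each). Ctsz rose by 0.40 ± 0.09 (adjusted p = 0.00471) and Ctsd by 0.42 ± 0.14 (adjusted p = 0.0326). Ctsl, a cathepsin that trims the invariant chain in thymic epithelium, fell by 1.73 ± 0.22 (adjusted p = 1.16e-04), with 84637, 72678 and 146704 normalized counts in co-culture, 218733, 225178 and 192269 with TGF-β, and 361086, 309650 and 292918 in monoculture. Per kilobase of exon, the ratio of Ctss to Ctsl was 9.65, 10.2 and 5.23 in co-culture, 2.77, 2.88 and 2.48 with TGF-β, and 1.67, 1.57 and 1.63 in monoculture, in 3 groups without overlap. Before division by length it was 2.02, 2.14 and 1.09 in co-culture, 0.581, 0.604 and 0.520 with TGF-β, and 0.350, 0.328 and 0.341 in monoculture. The annotated exons span 6489 bases for Ctsl and 1358 for Ctss, and the transcripts made here may be shorter. Outside co-culture, which of the 2 was higher thus depends on the length used. Cst3, cystatin C, an inhibitor of such cathepsins, fell by 0.36 ± 0.12 (adjusted p = 0.0398). The call of Ctsd was lost without co-culture replicate 1 (0.29, adjusted p = 0.176), TGF-β replicate 1 (0.0527), monoculture replicate 2 (0.0722) or monoculture replicate 3 (0.113). That of Cst3 was lost without co-culture replicate 1 (adjusted p = 0.0636), 2 (0.135) or 3 (0.0802), TGF-β replicate 1 (0.0582), or monoculture replicate 1 (-0.24, adjusted p = 0.172) or 3 (0.0652). Quantile normalization ended both calls, at 0.11 for Ctsd (adjusted p = 0.539) and -0.22 for Cst3 (adjusted p = 0.122). Ctsb and Ifi30, the thiol reductase of the endosome, were not called.

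Of the 7 genes for the factors that CIITA joins on the X and Y boxes, 1 rose in co-culture against monoculture. That is near the 15.9% of all genes tested that rose. It was Creb1, at 0.51 ± 0.08 (adjusted p = 1.77e-04). The RFX subunits Rfx5, Rfxank and Rfxap and the NF-Y subunits Nfya, Nfyb and Nfyc were not called, with fold changes of -0.17 to 0.32. Of the 8 genes upstream of Ciita, 4 rose and none fell, where 15.9% and 15.0% of all genes tested did. Ifngr2, a chain of the interferon-γ receptor, rose by 0.46 ± 0.07 (adjusted p = 1.36e-04), and the interferon-induced factor Irf1 rose by 0.44 ± 0.11 (adjusted p = 0.00527). The kinase Jak2 rose by 0.35 ± 0.10 (adjusted p = 0.0162) and Irf8 by 0.27 ± 0.07 (adjusted p = 0.0120). Jak2 lost its call without co-culture replicate 1 (adjusted p = 0.0684), co-culture replicate 3 (0.0530) or monoculture replicate 2 (0.0512), and Irf8 without co-culture replicate 1 (0.0537). Jak1, Ifngr1, Socs1 and Spi1 were not called. With TGF-β against monoculture none of these 15 genes was called, where 2.52% of all genes tested were.

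**Figure D5:**
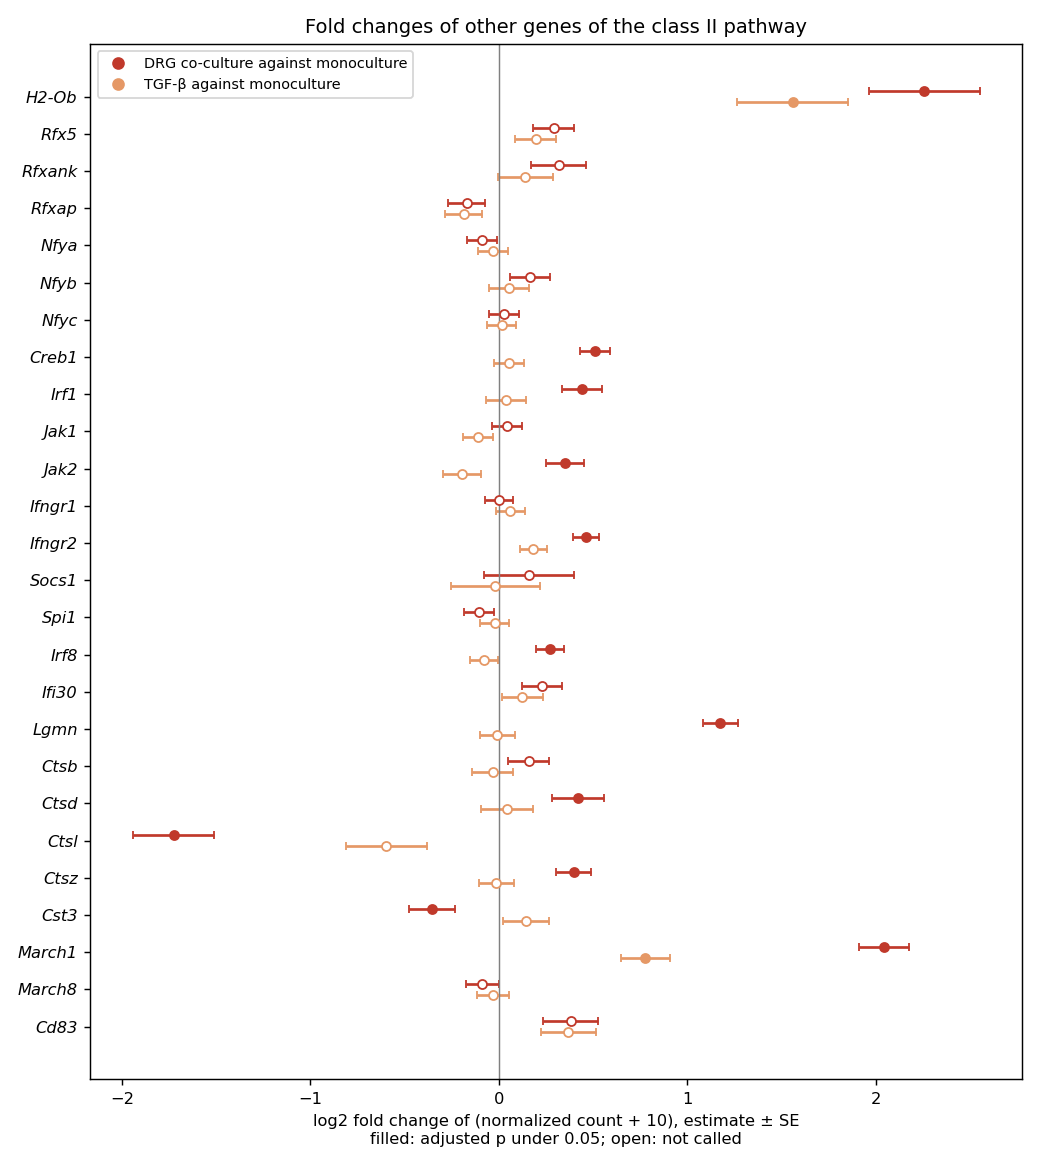
Log2 fold changes (estimate ± SE) of the 26 other pathway genes in DRG co-culture and with TGF-β, each against monoculture, with filled points for adjusted p under 0.05. H2-Ob, March1 and Lgmn stand out in co-culture against monoculture at 2.26, 2.04 and 1.18, and Ctsl at -1.73.

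The genes whose levels followed the surface chains most closely over the 9 libraries were found by Pearson's r between log2(normalized count + 10) and the mean of H2-Aa, H2-Ab1 and H2-Eb1, among 10269 genes. They were Irg1 (0.97), Morn2 (0.94), Mastl (0.94), Ndc80 (0.93) and Sepw1 (0.93). Irg1, which makes itaconate, averaged 222 normalized counts in co-culture, 382 with TGF-β and 255 in monoculture. The 9 libraries fall into 3 groups and differ in depth, so these values describe likeness in these libraries alone.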

How the data were processed

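RNA-seq was measured in 9 libraries, 3 per group, each made from 10 ng RNA. The deposited signal values are gene read counts that the authors divided by 1 size factor per library, as every value is a whole multiple of the smallest (100% within 0.05). Build mm10 and, without a role or order, R 3.6.1, DESeq2 1.24.0, STAR 2.7.3 and bcl2fastq 2.20 are named, per the submitters' processing notes. The counter, its use of strand and the annotation are not given in the sources used here.

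From these values, limma 3.58.1 in R 4.3.3 (trend, robust) was fitted on log2(value + 10) with all 9 libraries and group as the only factor. Genes at 10 or more in at least 3 libraries were tested (16328 of 24607), with Benjamini-Hochberg adjustment over all of them and calls at adjusted p under 0.05. The fit was tested on simulated data. Replicates differed by more than sampling noise (chi-square per degree of freedom of at least 78.5). Alternatives were edgeR 4.0.16 and DESeq2 1.42.0 on the recovered reads, other pseudocounts, filters and scalings, a replicate block and leaving out libraries. Coordinates and exon lengths are from GENCODE M21 (mm10). A further gene of the pathway, beyond the 29 counted, is not reported here. The 10 genes and all lists were chosen with earlier results of these data known. Genes named in the text are the 10 genes, the pathway list, 5 likeness genes and the marker checks. Ighm, Cd79b, Ms4a1, Ccr7, Xcr1, Zbtb46, Clec9a, Batf3, Ngfr, Fabp7, Dcn, Sox10, Brd2, Dexi and BC051537 were singled out after their values were seen.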

Additional observations from a re-analysis of the deposited data

How the results depend on the processing

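No fold change of the 10 genes turned its direction under the alternatives run while called; of their fold changes, 563 of 585 kept their side of the threshold, 6 gained a call and 16 lost one. Of the 563, 8 uncalled values turned sign: 4 of H2-Oa and 1 of H2-DMb1 for TGF-β against monoculture, and 2 of H2-Ab1 and 1 of H2-Aa for co-culture against monoculture. Of the 10 genes, 1 was called for TGF-β against monoculture, and 3 were by DESeq2, 2 with a pseudocount of 50 and 0 with a filter of 50, under which H2-Aa was not tested; the causes of the first 2 were not tested. Leaving out libraries gave 4 to 6 calls for co-culture against monoculture, 0 to 2 for TGF-β against monoculture and 5 to 9 for co-culture against TGF-β. Without replicate 1 of every group, which leaves 2 libraries per group, the counts were 4, 0 and 5; H2-DMb1 (adjusted p = 0.0596) and Cd74 (0.0640) lost their calls against monoculture, H2-Aa (0.196) its call with TGF-β, and H2-Ab1 (0.101), H2-Eb1 (0.100), H2-DMb1 (0.146) and Ctss (0.120) theirs in co-culture against TGF-β. Of the other pathway genes, Irf1 (0.0618), Ctsz (0.0736), Irf8 (0.0968), Jak2 (0.163), Ctsd (0.218) and Cst3 (0.273) lost theirs against monoculture, H2-Ob (0.162) its call with TGF-β, and Cst3 (0.0575), Irf8 (0.0630), Ctsz (0.161), Ifngr2 (0.176) and Irf1 (0.188) theirs in co-culture against TGF-β. The genes tested were kept the same in these fits. Over all genes, leaving out libraries gave 3042 to 5464, 46 to 939 and 2184 to 4601 calls in the same order, against 5033, 412 and 4128, and DESeq2 called 907 for TGF-β against monoculture.

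With the replicate number as a block, 2 of the 10 genes were called for TGF-β against monoculture, H2-Ab1 being added (adjusted p = 0.0336), and 6 and 9 in the other comparisons. Same-numbered libraries deviated together with r of -0.147 to 0.372 over all genes tested, and not every library correlated best with its own number. These mixed values do not settle whether the numbers mark a pairing, and the main fit used group as the only factor. For TGF-β against monoculture r was 0.123, 0.0130 and 0.372, and 0.348, 0.121 and 0.554 among genes averaging 100 or more, where TGF-β replicate 2 correlated better with monoculture replicate 1 (0.202).

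The loader minus surface difference was 1.36 for co-culture against monoculture and 2.36 for co-culture against TGF-β without H2-DMb2, and -1.23 for TGF-β against monoculture and 3.27 for co-culture against TGF-β with a pseudocount of 1; the causes were not tested. Depth limits H2-Aa, H2-Eb1, H2-Oa and Ciita, which had 106 reads or fewer per group except H2-Aa with TGF-β at 144. It also limits H2-DMb2, with 93 reads with TGF-β and 67 in monoculture, and H2-Ob, with 96 and 26 in the same order.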
